A study of Homo sapiens with 21 samples.

Results

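Proteasome subunit genes were taken from the count table by symbol: every gene whose NCBI symbol was PSMA, PSMB, PSMC or PSMD followed by a number, with pseudogenes left out. This gave 39 of the 28395 genes in the table. By their known place in the complex, 19 of the 39 encode subunits of the core particle and 17 encode subunits of the regulatory particle, while PSMD5, PSMD9 and PSMD10 carry PSMD symbols but encode chaperones of assembly. A filter on low counts kept 34 of the 39 among 16036 genes tested, namely 14 of the core particle, 17 of the regulatory particle and 3 chaperones.

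The study sequenced polyadenylated RNA of Hs578T cells after 8 h of treatment with an inhibitor of the transcriptional kinases CDK12 and CDK13, with inhibitors of tyrosine kinases, or with both. Hs578T is an established line of triple-negative breast cancer, so the data come from 1 line at 1 time. The 7 groups of 3 libraries (21 libraries) were DMSO (the solvent), 0.1 µM THZ531 (a covalent inhibitor of CDK12 and CDK13), 3.16 µM lapatinib (an inhibitor of EGFR and HER2), 1 µM nilotinib (an inhibitor of ABL and other tyrosine kinases), 3.16 µM lapatinib with 0.1 µM THZ531, 1 µM nilotinib with 0.1 µM THZ531, and 1 µM THZ531. The last 3 groups are called the strong treatments here, and their values are given in that order where no group is named. Total counts per library lay between 97612207 and 112229052, with a median of 104639800. Levels are given as CPM, counts divided by the library size after scaling by the trimmed mean of M-values (TMM). In the 21 libraries the mesenchymal marker VIM lay between 6395 and 10123 CPM and CDH2 between 492 and 912 CPM, while ESR1 was at most 0.502 CPM and ERBB2 between 24.0 and 42.0 CPM. The epithelial marker EPCAM had at most 10 counts in a library and the T-cell marker CD3E at most 2, while the epithelial keratin KRT8 lay between 19.7 and 35.0 CPM and the leukocyte marker PTPRC between 0.774 and 2.45 CPM. Markers moved both ways with the strong treatments. Under TMM scaling 4 rose, which mitochondrial mRNA scaling, described below, turned or shrank: the log2 fold changes of CDH2 went from 0.61, 0.60 and 0.54 to -0.07, -0.03 and -0.02, those of VIM from 0.52, 0.49 and 0.49 to -0.17, -0.13 and -0.05, those of KRT8 from 0.66, 0.63 and 0.67 to -0.02, 0.01 and 0.13, and those of PTPRC from 0.74, 0.82 and 1.14 to 0.06, 0.20 and 0.59, the last of which still passed as higher. EGFR fell from 190.4 ± 22.6 CPM in DMSO (mean ± SD, n = 3) to 48.5 ± 3.55, 54.4 ± 1.79 and 77.2 ± 8.62, ERBB2 from 37.5 ± 4.09 to 27.7 ± 3.12, 27.7 ± 3.72 and 31.6 ± 1.81, the last not passing, and ESR1 from 0.364 ± 0.0297 to 0.128 ± 0.0223, 0.152 ± 0.0478 and 0.179 ± 0.0467, and the leukocyte marker CD14 went from 0.108 ± 0.0733 to 0.0330 ± 0.0328, 0.0219 ± 0.0220 and 0.0699 ± 0.0605.

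The proteasome is the protease that degrades proteins tagged with ubiquitin in the cytosol and nucleus of eukaryotic cells. Its core particle is a barrel of stacked rings, with outer rings of alpha subunits that gate the pore and inner rings of beta subunits that hold the catalytic sites. The regulatory particle caps the barrel: its base and lid bind and remove ubiquitin, and the ATPases of the base unfold the substrate and feed it into the core. Because the subunits are built into one complex, their genes are largely controlled together, in mammals by the transcription factor NFE2L1, and cancer cells depend on the complex to clear surplus and damaged proteins.

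Proteasome subunit genes were higher, relative to the rest of the transcriptome, in each of the strong treatments, which share the same 3 DMSO libraries as their control, while scaling to mitochondrially encoded mRNAs turned their median log2 fold change below 0. With lapatinib and THZ531, 27 of the 34 tested subunit genes rose and 3 fell against DMSO (edgeR, TMM scaling, adjusted p under 0.05), where 34.3% of the 16036 genes rose and 37.8% fell. The median log2 fold change (FC) was 0.56 for the subunit genes and -0.01 for the genes tested. With nilotinib and THZ531, 28 rose and 2 fell, beside 33.7% and 37.3% of the genes tested, and the medians were 0.54 and -0.01. With 1 µM THZ531, 25 rose and 4 fell, beside 33.1% and 36.8%, and the medians were 0.44 and -0.01. Most of these changes were moderate. Past a log2 FC of 1 in size, 0 subunit genes rose (also 0 at an unadjusted p under 0.05 and 0 by DESeq2) and 1 fell, PSMD5, in each strong treatment. PSMA7 passed that size with 1 library left out. It had 1.0001 without replicate 2 of lapatinib and THZ531, and 1.01 without replicate 3 of nilotinib and THZ531. Of the genes tested, 7.9% rose and 21.3% fell past that size with lapatinib and THZ531, 6.54% and 20.8% with nilotinib and THZ531, and 5.77% and 18.9% with 1 µM THZ531.

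These directions are relative to the other mRNAs, and they depended on the scaling. When libraries were scaled to their 13 mitochondrially encoded mRNAs, which are not made by RNA polymerase II, the median log2 FC of the genes tested was -0.69, -0.63 and -0.55 in the strong treatments and that of the subunit genes -0.12, -0.08 and -0.10. Under it 10, 8 and 9 of the 34 subunit genes fell and the others did not pass, beside 58.4%, 55.9% and 52.5% lower and 5.3%, 4.83% and 4.35% higher among the genes tested. Scaling to library size alone put the median of the genes tested at -0.34, -0.31 and -0.27, and the subunit median stayed above 0, at 0.23, 0.23 and 0.18. With it 20, 21 and 17 subunit genes rose and 6, 5 and 7 fell, beside 20.9%, 20.5% and 21% higher and 48.4%, 47.1% and 45.6% lower among the genes tested, and single genes turned, such as PSMD7 from 0.05 to -0.28 with lapatinib and THZ531, named after its values were seen. The subunit median lay 0.57, 0.55 and 0.45 above the median of the genes tested under TMM scaling. A change of scaling moves each gene by about the same amount, so this difference is nearly fixed by construction and says nothing of which scaling is right. The mitochondrially encoded mRNAs took 1.25% ± 0.0895 (SD, n = 3) of the counts in DMSO and 1.60% ± 0.139, 1.56% ± 0.115 and 1.53% ± 0.219 in the strong treatments. Whether the subunit mRNAs rose per cell was not tested, and fewer cells and less RNA per cell cannot be told apart in these libraries.

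**Figure D1:**
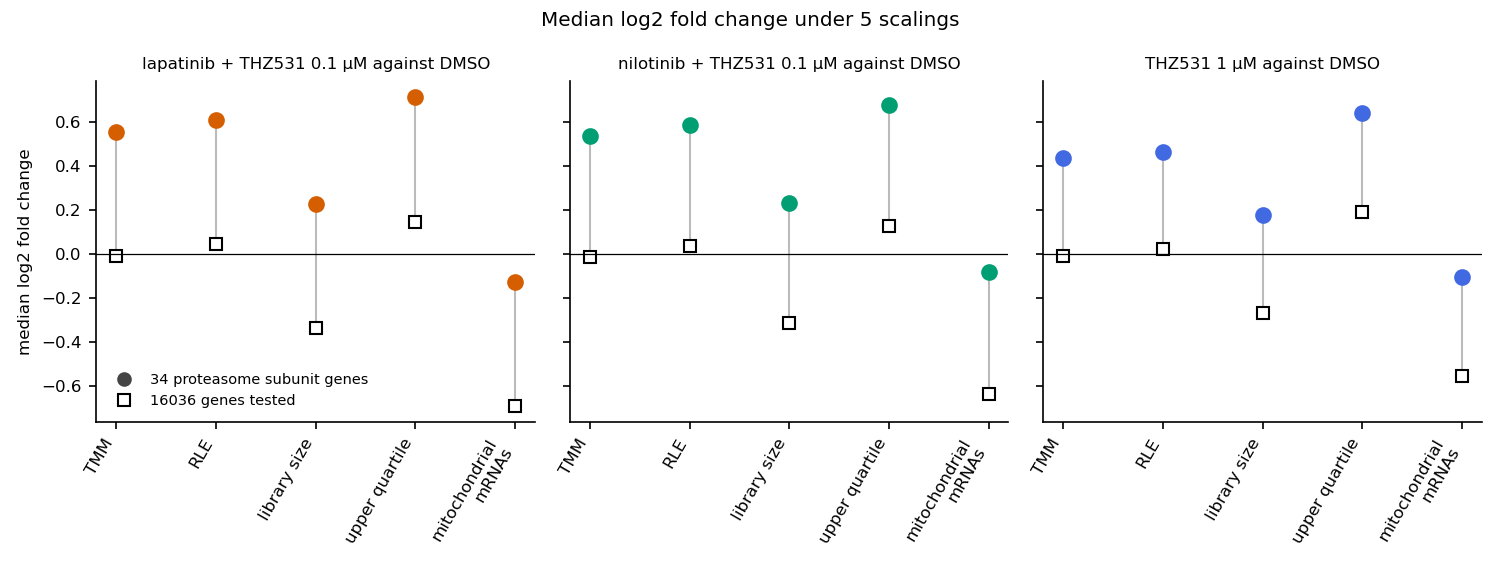
Median log2 FC against DMSO of the 34 subunit genes and of the 16036 genes tested under 5 scalings in the strong treatments. The distance between the medians is nearly fixed by construction, as a scaling moves each gene by about the same amount, while scaling to the mitochondrially encoded mRNAs puts the subunit median itself below 0.

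Given alone, 0.1 µM THZ531, lapatinib and nilotinib gave no calls among the subunit genes. With 0.1 µM THZ531, 0 of the 34 subunit genes passed in either direction by edgeR (at an unadjusted p under 0.05, 1 higher and 0 lower; by DESeq2, 0), beside 1.78% higher and 4.31% lower among the genes tested, and the subunit and all-gene medians were 0.09 and 0.01. Lapatinib gave 0 calls by edgeR, by DESeq2 and at an unadjusted p under 0.05, beside 0.256% higher and 0.0561% lower, with medians of -0.03 and -0.01. Its subunit median moved to -0.17 under mitochondrial mRNA scaling. For nilotinib the counts were 0 by edgeR and DESeq2 and 1 higher at an unadjusted p under 0.05, beside 0.243% and 0.0998%, with medians of 0.04 and -0.0019, and the subunit median turned to -0.14 under mitochondrial mRNA scaling. A p that misses the threshold does not show that levels were equal. In the single treatments the subunit log2 FC lay between -0.01 and 0.19 with 0.1 µM THZ531, -0.09 and 0.06 with lapatinib, and -0.08 and 0.17 with nilotinib.

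Whether 0.1 µM THZ531 acted differently once a tyrosine kinase inhibitor was present was tested as an interaction. For lapatinib, the effect of 0.1 µM THZ531 was higher in 21 and lower in 2 of the 34 subunit genes, beside 28.2% and 32% of the genes tested, with medians of 0.48 and 0.03. For nilotinib it was higher in 20 and lower in 2, beside 25.6% and 31.2%, with medians of 0.42 and 0.03. PSMA7 of the alpha ring had interaction terms of 0.81 ± 0.16 (log2 scale ± SE, adjusted p = 1.99e-04) with lapatinib and 0.66 ± 0.16 (adjusted p = 0.00144) with nilotinib. PSMD5 had -1.57 ± 0.11 (adjusted p = 3.56e-10) and -1.23 ± 0.11 (adjusted p = 1.20e-08). Mitochondrial mRNA scaling reversed the direction: 0 higher and 6 lower for lapatinib and 0 and 4 for nilotinib, beside 3.7% higher and 44.4% lower and 3.7% higher and 40.1% lower among the genes tested. Library size alone gave 10 higher and 4 lower for lapatinib, beside 14.9% higher and 41.1% lower, and 9 and 4 for nilotinib, beside 12.8% higher and 38.4% lower. Upper-quartile scaling went the other way, with 28 higher and 2 lower in each, beside 36.1% higher and 27% lower for lapatinib and 33.6% higher and 26.8% lower for nilotinib. Each interaction uses the DMSO and 0.1 µM THZ531 libraries, so the pair shares them.

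Most tested subunit genes passed as higher in the strong treatments under TMM scaling, though none did under mitochondrial mRNA scaling, and the promoters of the subunit genes were searched for 2 motifs known from proteasome gene control, as RefSeq gives them for GRCh38.p14 from 250 bases before to 50 after the start. 34 of the 39 genes had a promoter entry, and PSMA7, PSMB1, PSMB6, PSMB7 and PSMD4 did not. The core of the antioxidant response element, to which NFE2L1 and NFE2L2 bind with small MAF proteins, was searched as TGACNNNGC on both strands and found in 10 of the 34 (29.4%), beside 16.1% of 27305 genes with a promoter entry, where a gene with several windows counted once. CCAAT, bound by NF-Y, was found on either strand in 18 of the 34 (52.9%), beside 39.7% of those genes. The 34 include genes that were not tested, and among the 29 tested ones with a promoter entry the 2 motifs were found in 8 and 15. The 6 printed here were chosen after their genes' values were seen, so that genes that rose, fell or did not pass can be read side by side, and a match is a description and not a site. PSMC3, at chr11:47426390-47426689 on the minus strand, and PSMB10, at chr16:67936801-67937100 on the minus strand, belong to genes that rose in each strong treatment under TMM scaling and did not pass under mitochondrial mRNA scaling. PSMA5, at chr1:109426399-109426698 on the minus strand, did not pass in any strong treatment under TMM scaling and passed as lower in each under mitochondrial mRNA scaling, and PSMD12, at chr17:67366528-67366827 on the minus strand, differed between the strong treatments. PSMC6, at chr14:52706950-52707249 on the plus strand, and PSMD5, at chr9:120842873-120843172 on the minus strand, fell in each strong treatment. Capitals mark the matches: CCAAT 114 bases before the start in PSMC3 and 83 and 54 before it in PSMA5, and TGACNNNGC 165 before it in PSMD12 and 134 in PSMD5, whereas the windows of PSMB10 and PSMC6 held neither.
PSMC3: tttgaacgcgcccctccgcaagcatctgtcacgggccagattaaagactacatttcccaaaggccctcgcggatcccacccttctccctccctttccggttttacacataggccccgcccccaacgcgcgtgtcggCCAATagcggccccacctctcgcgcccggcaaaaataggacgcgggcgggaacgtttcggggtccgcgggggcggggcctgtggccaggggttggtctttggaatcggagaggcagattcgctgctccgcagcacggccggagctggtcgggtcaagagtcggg
PSMB10: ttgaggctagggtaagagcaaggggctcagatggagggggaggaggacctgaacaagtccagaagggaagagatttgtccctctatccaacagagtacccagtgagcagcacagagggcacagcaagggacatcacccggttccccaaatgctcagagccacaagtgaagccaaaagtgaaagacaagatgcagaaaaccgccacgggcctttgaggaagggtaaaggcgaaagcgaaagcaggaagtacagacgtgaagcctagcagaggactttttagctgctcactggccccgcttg
PSMA5: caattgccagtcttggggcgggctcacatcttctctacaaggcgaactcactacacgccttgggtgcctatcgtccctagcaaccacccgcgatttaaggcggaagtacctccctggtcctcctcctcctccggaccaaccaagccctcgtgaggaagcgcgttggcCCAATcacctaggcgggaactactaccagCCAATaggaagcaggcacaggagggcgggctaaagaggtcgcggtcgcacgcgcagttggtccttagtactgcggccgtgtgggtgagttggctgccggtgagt
PSMD12: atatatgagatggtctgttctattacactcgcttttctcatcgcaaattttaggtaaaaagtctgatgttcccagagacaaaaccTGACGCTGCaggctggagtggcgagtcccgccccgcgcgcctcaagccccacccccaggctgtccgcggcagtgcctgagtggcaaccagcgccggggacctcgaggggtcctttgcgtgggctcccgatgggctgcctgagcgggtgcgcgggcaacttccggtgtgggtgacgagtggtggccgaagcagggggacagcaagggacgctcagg
PSMC6: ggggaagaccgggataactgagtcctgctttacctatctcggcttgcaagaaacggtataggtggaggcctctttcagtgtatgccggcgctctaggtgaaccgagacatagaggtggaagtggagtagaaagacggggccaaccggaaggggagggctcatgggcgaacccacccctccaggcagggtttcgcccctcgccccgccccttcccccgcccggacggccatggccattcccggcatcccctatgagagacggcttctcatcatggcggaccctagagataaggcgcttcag
PSMD5: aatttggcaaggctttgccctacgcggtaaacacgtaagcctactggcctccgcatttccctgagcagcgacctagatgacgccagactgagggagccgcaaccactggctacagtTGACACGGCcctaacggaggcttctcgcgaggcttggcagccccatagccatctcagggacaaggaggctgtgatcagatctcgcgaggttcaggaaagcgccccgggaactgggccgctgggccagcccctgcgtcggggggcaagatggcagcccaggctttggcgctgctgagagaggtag

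The alpha ring forms the gate of the core particle, and 7 of its 8 genes were tested. In each strong treatment 6 of the 7 rose and PSMA5 did not pass, with median log2 FCs of 0.66, 0.62 and 0.50, and under mitochondrial mRNA scaling the medians turned to -0.03, -0.0020 and -0.04. PSMA7 (gene 5688, chr20:62136733-62143394, GRCh38), the alpha gene with the highest log2 FC, had levels of 200.2, 198 and 224 CPM in DMSO, and 178, 224 and 246 CPM as lowest, median and highest of the 9 libraries given 0.1 µM THZ531, lapatinib or nilotinib alone. It had 445, 362 and 386 CPM with lapatinib and THZ531, 453, 383 and 346 CPM with nilotinib and THZ531, and 338, 398 and 396 CPM with 1 µM THZ531. The 9 libraries of the strong treatments lay above the other 12, with no overlap. The share of all genes tested without such overlap is not given, here or for the genes below. Many of the genes tested passed in each strong treatment, so a lack of overlap does not set the subunit genes apart. The log2 FCs of PSMA7 were 0.94 ± 0.11, 0.93 ± 0.11 and 0.86 ± 0.11 (± SE, adjusted p = 3.26e-07, 4.25e-07 and 1.22e-06), and under mitochondrial mRNA scaling they were 0.26, 0.31 and 0.33 and did not pass. PSMA5 (gene 5686, chr1:109399042-109426448), a structural subunit of the same ring, had 122, 104 and 129 CPM in DMSO and 108, 120.5 and 137 CPM as lowest, median and highest of the single treatments. Under the strong treatments it had 145, 114 and 119 CPM with lapatinib and THZ531, 140.2, 125 and 111 CPM with nilotinib and THZ531, and 98.9, 117 and 123 CPM with 1 µM THZ531. The strong treatments overlapped the other groups, and the lowest library was 1 of those given 1 µM THZ531. PSMA5 had log2 FCs of 0.09 ± 0.11, 0.09 ± 0.11 and -0.07 ± 0.11 (± SE, adjusted p = 0.472, 0.51 and 0.621). They turned to -0.59, -0.53 and -0.60 under mitochondrial mRNA scaling, where each passed as lower. Library size alone gave -0.23, -0.22 and -0.33, of which the last passed as lower, and the sign of the first and the last TMM value also turned with single libraries left out. PSMA1, PSMA2, PSMA3, PSMA4 and PSMA6 had log2 FCs between 0.30 and 0.72, or between -0.32 and 0.03 and not passing under mitochondrial mRNA scaling.

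The beta ring carries the proteolytic sites of the core particle. Of its 7 constitutive genes 6 were tested, and in each strong treatment 5 of the 6 rose under TMM scaling while PSMB5 did not pass. The median log2 FCs were 0.67, 0.61 and 0.57, and mitochondrial mRNA scaling put them at -0.01, -0.01 and 0.03. PSMB6 (gene 5694, chr17:4796164-4798495), the caspase-like catalytic subunit, had 126, 119.8 and 134 CPM in DMSO and 114, 135 and 148 CPM as lowest, median and highest of the single treatments. Its levels were 276, 217 and 228 CPM with lapatinib and THZ531, 254, 226 and 196 CPM with nilotinib and THZ531, and 192, 231 and 223 CPM with 1 µM THZ531. As with PSMA7, the libraries of the strong treatments lay above those of the other 4 groups. PSMB6 had log2 FCs of 0.92 ± 0.11, 0.83 ± 0.11 and 0.76 ± 0.11 (± SE, adjusted p = 2.67e-07, 1.14e-06 and 3.66e-06), or 0.24, 0.22 and 0.23 and not passing under mitochondrial mRNA scaling. PSMB7 (gene 5695, chr9:124353465-124415442), the trypsin-like catalytic subunit, had 91.5, 89.6 and 92.4 CPM in DMSO and 83.7, 93.7 and 107 CPM over the single treatments. Its levels were 172, 144 and 153 CPM with lapatinib and THZ531, 174, 149.8 and 136 CPM with nilotinib and THZ531, and 129.5, 146 and 142 CPM with 1 µM THZ531. Again no strong treatment overlapped the other groups. The log2 FCs of PSMB7 were 0.78 ± 0.09, 0.75 ± 0.09 and 0.61 ± 0.09 (± SE, adjusted p = 2.44e-07, 4.31e-07 and 6.59e-06), or 0.10, 0.14 and 0.08 and not passing under mitochondrial mRNA scaling. PSMB5 (gene 5693, chr14:23025851-23035220), the chymotrypsin-like subunit and the main target of bortezomib, had 137, 131 and 149 CPM in DMSO and 124, 138 and 148 CPM over the single treatments. With the strong treatments it had 156, 117 and 127 CPM with lapatinib and THZ531, 156, 134 and 117 CPM with nilotinib and THZ531, and 128, 154 and 146 CPM with 1 µM THZ531. For this gene the groups overlapped. Its log2 FCs were -0.06 ± 0.11, -0.03 ± 0.11 and 0.04 ± 0.11 (± SE, adjusted p = 0.626, 0.811 and 0.758), and their sign turned with the scaling and with single libraries left out, down to -0.74, -0.64 and -0.50 under mitochondrial mRNA scaling, where each passed as lower. With library size alone the values were -0.39, -0.33 and -0.22, and both combinations passed as lower. Of the 3 catalytic subunits of the constitutive core, PSMB6 and PSMB7 thus passed as higher under TMM and PSMB5 did not pass, whereas under mitochondrial mRNA scaling PSMB5 passed as lower and the other 2 did not pass. PSMB1, PSMB2 and PSMB4, which have no catalytic site, had log2 FCs between 0.41 and 0.69, and between -0.12 and 0.03 under mitochondrial mRNA scaling, where none passed.

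**Figure D2:**
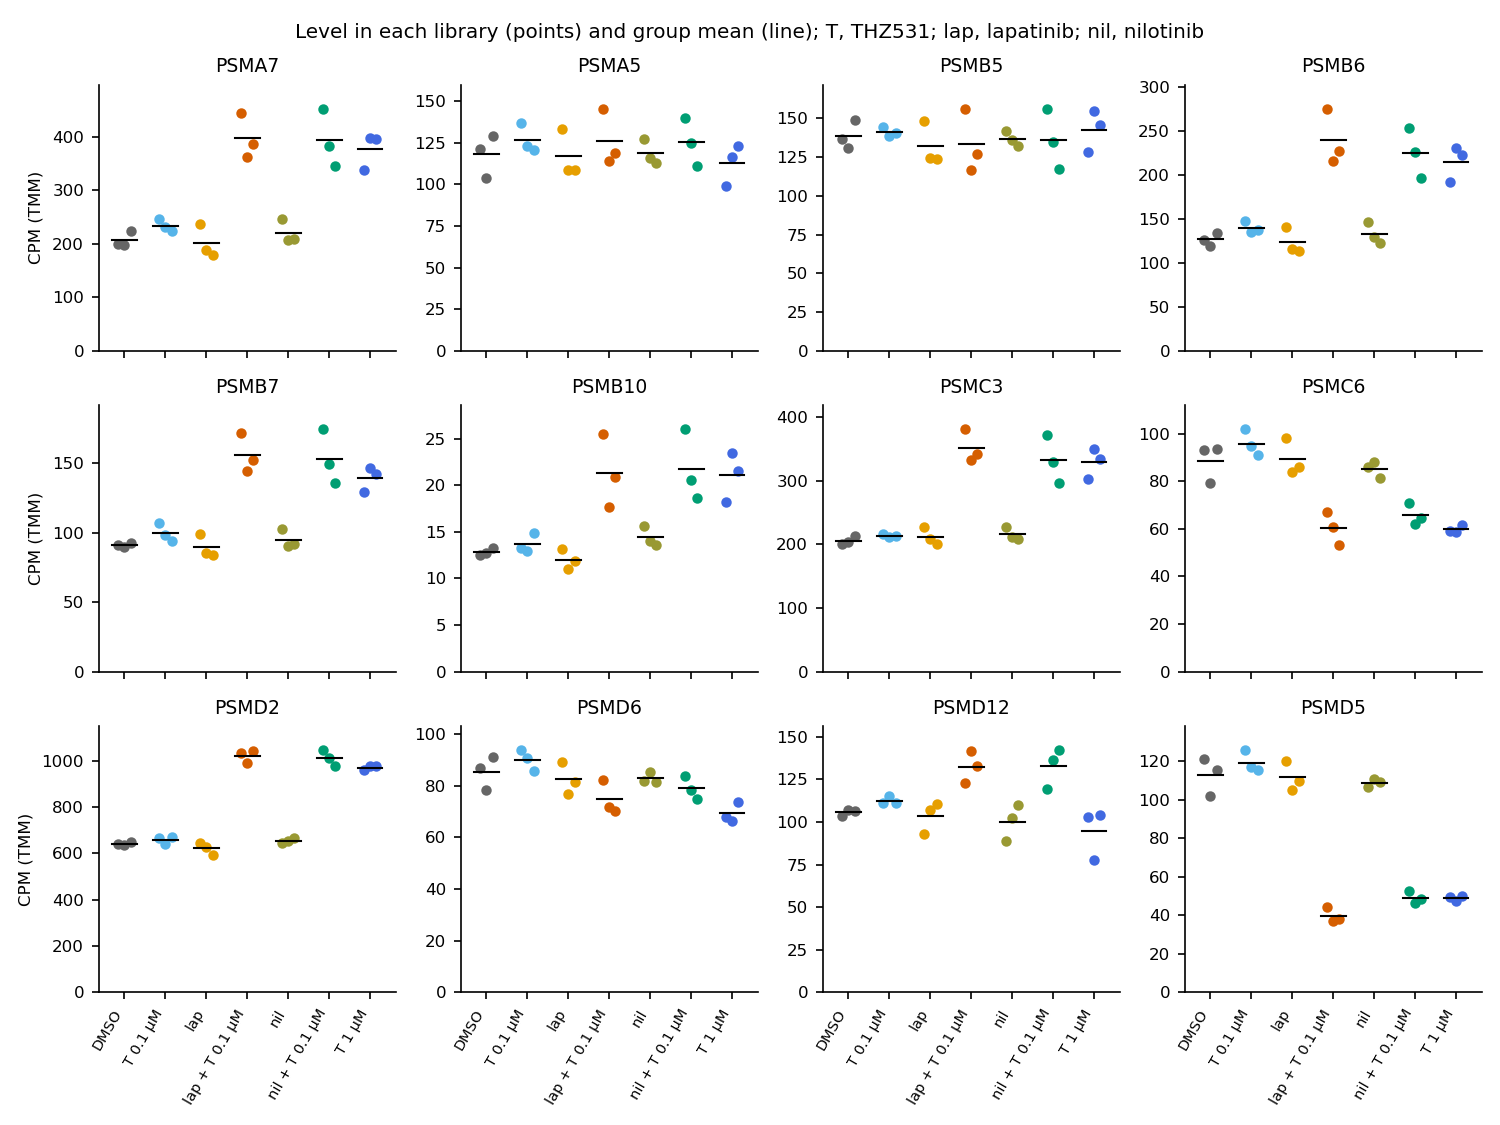
CPM (TMM scaling, vertical axes from 0) in each of the 21 libraries for 12 genes, with points for libraries and lines for group means (n = 3). The strong treatments sit apart from the other 4 groups in PSMA7, PSMB6, PSMB7, PSMB10, PSMC3 and PSMD2 (above) and in PSMC6 and PSMD5 (below), while under mitochondrial mRNA scaling the first 6 did not pass as higher and the log2 FC of PSMD2 turned to -0.01 with lapatinib and THZ531. The share of all genes tested that sit apart in this way is not given, so this is no trait particular to these genes.

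Interferon-inducible beta subunits replace the constitutive catalytic ones in the immunoproteasome, and PSMB11 does so in the thymus. PSMB10 (gene 5699, chr16:67934506-67936850), the inducible counterpart of PSMB7, was the 1 of these 4 genes that was tested. It had 12.5, 12.7 and 13.2 CPM in DMSO and 11.0, 13.3 and 15.6 CPM as lowest, median and highest of the single treatments. Under the strong treatments the levels were 25.5, 17.6 and 20.9 CPM with lapatinib and THZ531, 26.0, 20.6 and 18.6 CPM with nilotinib and THZ531, and 18.2, 23.5 and 21.6 CPM with 1 µM THZ531. These were low levels, and the strong treatments lay above the other groups without overlap. PSMB10 had log2 FCs of 0.74 ± 0.13, 0.76 ± 0.13 and 0.72 ± 0.13 (± SE, adjusted p = 4.71e-05, 3.33e-05 and 6.87e-05), or 0.06, 0.15 and 0.19 and not passing under mitochondrial mRNA scaling. The other inducible genes had next to no counts. PSMB8, the inducible counterpart of PSMB5, had 2 counts over 21 libraries, both in 1 library, and PSMB9, that of PSMB6, had 12, at most 2 in a library. PSMB11, the thymus-specific gene, had 33, at most 5. Among the other core genes that were not tested, PSMA8, the spermatogenesis-specific alpha subunit, had 4 and the constitutive beta gene PSMB3 had 39, at most 7 in a library.

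For PSMB3, PSMB8 and PSMB9 these near-zero counts cannot be read as absence of expression. Their reference transcripts matched alternate contigs of the genome over 99.1%, 98.9% and 99.9% of their length, with 1, 6 and 6 contigs past 90%, and 0 of the 34 tested subunit genes did so. Of 700 protein-coding genes with such a match, 535 (76.4%) had a median count under 10, beside 5381 of 18161 (29.6%) without one. Neighbours chosen after their values were seen had few counts as well, with 0 over the 21 libraries for TAP1 beside PSMB8 and PSMB9, and 43 and 22 for PIP4K2B and CWC25 near PSMB3. TAP2 and B2M went the other way: TAP2, near TAP1, had 99.4% matched, 6 contigs past 90% and 1183 counts, with 0 libraries at 0, and B2M had 98.2% matched and 593039 counts. Whether the reference used for alignment held these contigs is not stated, and their part in the low counts was not tested.

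In the base of the regulatory particle, the ring of 6 ATPases unfolds substrates. Of the 6 genes, 5 rose and PSMC6 fell with each combination, and with 1 µM THZ531 4 rose, PSMC6 fell and PSMC2 did not pass. The median log2 FCs were 0.56, 0.51 and 0.45, or -0.12, -0.11 and -0.09 under mitochondrial mRNA scaling. PSMC3 (gene 5702, chr11:47418775-47426439), the ATPase whose promoter is printed above with a CCAAT, had 201, 204 and 213 CPM in DMSO and 201, 212 and 227 CPM as lowest, median and highest of the single treatments. Its levels were 381, 333 and 343 CPM with lapatinib and THZ531, 372, 330.5 and 297 CPM with nilotinib and THZ531, and 303, 351 and 335 CPM with 1 µM THZ531. No strong treatment overlapped the other groups. PSMC3 had log2 FCs of 0.77 ± 0.08, 0.69 ± 0.08 and 0.68 ± 0.08 (± SE, adjusted p = 2.01e-08, 1.03e-07 and 1.61e-07), or 0.09, 0.08 and 0.14 and not passing under mitochondrial mRNA scaling. PSMC6 (gene 5706, chr14:52707200-52728590), another ATPase of the ring, went the other way. It had 93.2, 79.3 and 93.6 CPM in DMSO and 81.5, 88.1 and 102 CPM over the single treatments. The strong treatments gave 67.0, 60.8 and 53.1 CPM with lapatinib and THZ531, 70.9, 62.2 and 64.7 CPM with nilotinib and THZ531, and 59.3, 58.8 and 61.6 CPM with 1 µM THZ531. Its 9 libraries in the strong treatments were the lowest of the 21. PSMC6 had log2 FCs of -0.56 ± 0.09, -0.43 ± 0.09 and -0.57 ± 0.09 (± SE, adjusted p = 9.92e-06, 1.98e-04 and 9.19e-06), and -1.24, -1.05 and -1.11 under mitochondrial mRNA scaling. PSMC1, PSMC2, PSMC4 and PSMC5 had log2 FCs between 0.13 and 0.63, with PSMC2 the lowest of them in each strong treatment. Mitochondrial mRNA scaling put these 4 between -0.48 and 0.01, where PSMC2 turned to -0.48, -0.38 and -0.41 and passed as lower in each strong treatment, and it turned to -0.13, -0.06 and -0.13 with library size alone.

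The base also holds PSMD1 and PSMD2, large scaffolds that bind shuttle factors and ubiquitin, and PSMD4, a ubiquitin receptor. Each of the 3 rose in each strong treatment, with median log2 FCs of 0.53, 0.53 and 0.53, or -0.16, -0.09 and -0.01 under mitochondrial mRNA scaling. PSMD2 (gene 5708, chr3:184299241-184309050) had 640.3, 636 and 649.6 CPM in DMSO and 595, 645 and 672 CPM as lowest, median and highest of the single treatments. With the strong treatments it had 1033, 989.7 and 1044 CPM with lapatinib and THZ531, 1046, 1011 and 978 CPM with nilotinib and THZ531, and 959, 979 and 976 CPM with 1 µM THZ531. The 9 libraries lay above the other 12. The log2 FCs of PSMD2 were 0.67 ± 0.04, 0.66 ± 0.04 and 0.60 ± 0.04 (± SE, adjusted p = 5.14e-11, 7.82e-11 and 4.29e-10), or -0.01, 0.04 and 0.06 and not passing under mitochondrial mRNA scaling. PSMD4 (gene 5710, chr1:151254734-151267479) had 74.8, 79.7 and 79.7 CPM in DMSO and 70.7, 78.4 and 86.2 CPM over the single treatments. Under the strong treatments its levels were 122, 102 and 107 CPM with lapatinib and THZ531, 124, 109 and 103 CPM with nilotinib and THZ531, and 102, 114 and 108 CPM with 1 µM THZ531. Here too the groups did not overlap. PSMD4 had log2 FCs of 0.50 ± 0.08, 0.52 ± 0.08 and 0.47 ± 0.08 (± SE, adjusted p = 1.02e-05, 6.05e-06 and 2.65e-05), and they turned to -0.18, -0.09 and -0.07, not passing, under mitochondrial mRNA scaling. PSMD1 had 0.53, 0.53 and 0.53, which that scaling turned to -0.16, -0.09 and -0.01.

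The lid, built around the deubiquitinase PSMD14, was the most mixed of the groups in the regulatory particle. Of its 8 tested genes, 5 rose and PSMD6 fell with lapatinib and THZ531, 6 rose with nilotinib and THZ531, and with 1 µM THZ531 4 rose while PSMD6 and PSMD7 fell, of which PSMD7 (-0.14) was at the edge. Its call was lost with RLE size factors (-0.11), no filter (-0.14), DESeq2 (-0.11), a fit of the groups compared (-0.11) or without DMSO replicate 3 (-0.12) or replicate 2 of 1 µM THZ531 (-0.11), and upper-quartile scaling turned it to 0.06. Library size alone (-0.40) and mitochondrial mRNA scaling (-0.68) put PSMD7 further down, each passing as lower. The median log2 FCs were 0.32, 0.39 and 0.15, which library size alone put at -0.01, 0.09 and -0.11 and mitochondrial mRNA scaling at -0.36, -0.23 and -0.39. PSMD8 (gene 5714, chr19:38374571-38383824), a structural lid subunit, had 247, 240.5 and 263 CPM in DMSO and 228, 268 and 279 CPM as lowest, median and highest of the single treatments. Its levels were 421, 344 and 360.2 CPM with lapatinib and THZ531, 427, 365 and 343 CPM with nilotinib and THZ531, and 325, 385 and 378 CPM with 1 µM THZ531. The strong treatments lay above the other groups. PSMD8 had log2 FCs of 0.59 ± 0.09, 0.60 ± 0.09 and 0.54 ± 0.09 (± SE, adjusted p = 7.20e-06, 5.94e-06 and 2.33e-05), or -0.09, -0.02 and 0.0036 and not passing under mitochondrial mRNA scaling. PSMD6 (gene 9861, chr3:64010551-64024007), another structural subunit, had 86.8, 78.4 and 91.1 CPM in DMSO and 76.6, 85.4 and 93.7 CPM over the single treatments. The strong treatments gave 82.4, 72.0 and 70.2 CPM with lapatinib and THZ531, 83.6, 78.2 and 75.1 CPM with nilotinib and THZ531, and 67.9, 66.3 and 73.8 CPM with 1 µM THZ531. Both combinations overlapped the other groups, and the 3 libraries given 1 µM THZ531 lay below them. PSMD6 had log2 FCs of -0.19 ± 0.08, -0.11 ± 0.08 and -0.30 ± 0.08 (± SE, adjusted p = 0.032, 0.193 and 0.00172). The first of these lost its call without DMSO replicate 1 (-0.18), DMSO replicate 3 (-0.14) or replicate 2 or 3 of lapatinib and THZ531 (-0.16 and -0.15), with RLE size factors or DESeq2 (-0.14 each), and when the fit held the groups compared alone (-0.18). Upper-quartile scaling ended both calls, with -0.03 and -0.10, and turned the value with nilotinib and THZ531 to 0.03. Other settings went further down: library size alone called PSMD6 lower with nilotinib and THZ531 (-0.42), and mitochondrial mRNA scaling gave -0.87, -0.74 and -0.84, each passing as lower. The other lid genes had log2 FCs between -0.16 and 0.65, highest for PSMD14 with nilotinib and THZ531, and between -0.70 and 0.03 under mitochondrial mRNA scaling. Under that scaling PSMD7 and PSMD11 passed as lower in each strong treatment, and PSMD12 with lapatinib and THZ531 and with 1 µM THZ531. PSMD3 turned from 0.32 to -0.37 with lapatinib and THZ531 and passed as lower there.

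The chaperones PSMD5, PSMD9 and PSMD10 bind the ATPases while the base is assembled and leave before the proteasome is complete. In each strong treatment PSMD9 and PSMD10 rose and PSMD5 fell, with median log2 FCs of 0.37, 0.40 and 0.36, or -0.32, -0.22 and -0.19 under mitochondrial mRNA scaling. PSMD5 (gene 5711, chr9:120816053-120842922) had 121, 102 and 115 CPM in DMSO and 105, 111 and 126 CPM as lowest, median and highest of the single treatments. Under the strong treatments it had 44.4, 37.2 and 37.9 CPM with lapatinib and THZ531, 52.6, 46.3 and 48.3 CPM with nilotinib and THZ531, and 49.6, 47.4 and 50.1 CPM with 1 µM THZ531. These 9 libraries lay far below the other 12, and those of lapatinib and THZ531 were the lowest. The log2 FCs of PSMD5 were -1.50 ± 0.08, -1.20 ± 0.08 and -1.20 ± 0.08 (± SE, adjusted p = 1.56e-12, 4.48e-11 and 6.26e-11), the largest in size among the 34 genes in each strong treatment, and -2.19, -1.83 and -1.75 under mitochondrial mRNA scaling. PSMD10 (gene 5716, chrX:108084207-108091542), also known as gankyrin, had 59.1, 50.0 and 56.5 CPM in DMSO and 50.8, 55.2 and 63.3 CPM over the single treatments. With the strong treatments it had 88.5, 64.8 and 70.9 CPM with lapatinib and THZ531, 81.6, 68.7 and 67.8 CPM with nilotinib and THZ531, and 66.6, 73.9 and 71.5 CPM with 1 µM THZ531. The lowest of these 9 was just above the highest of the other 12. PSMD10 had log2 FCs of 0.44 ± 0.11, 0.40 ± 0.11 and 0.36 ± 0.11 (± SE, adjusted p = 0.00134, 0.00298 and 0.00673). None of them passed with library size alone (0.11, 0.09 and 0.10), and they turned to -0.25, -0.22 and -0.19 under mitochondrial mRNA scaling. PSMD9 had 0.37, 0.41 and 0.42, and turned to -0.32, -0.21 and -0.12 under that scaling.

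The strong treatments were also compared with each other, to see whether a combination at the low dose of THZ531 differed from the high dose alone. With lapatinib and THZ531, 3 of the 34 subunit genes were higher and 1 lower than with 1 µM THZ531, beside 12.8% and 16.1% of the genes tested, and the subunit and all-gene medians were 0.08 and -0.02. With nilotinib and THZ531, 3 were higher and 0 lower (at an unadjusted p under 0.05, 5 and 0; by DESeq2, 4 and 0), beside 11.2% and 13%, with medians of 0.07 and -0.03. The genes higher in both were PSMD7, PSMD11 and PSMD12, lid subunits named after their values were seen, in comparisons that share the 1 µM THZ531 libraries. PSMD12 (gene 5718, chr17:67337916-67366577) had 103, 107 and 107 CPM in DMSO, 88.9, 109.6 and 115 CPM as lowest, median and highest of the single treatments, and 123, 141 and 133 CPM with lapatinib and THZ531, 119, 136 and 142 CPM with nilotinib and THZ531, and 103, 77.5 and 104 CPM with 1 µM THZ531. Under TMM scaling each combination lay above DMSO and the single treatments, whereas the libraries given 1 µM THZ531 overlapped them and included the lowest of the 21. Against DMSO the log2 FCs of PSMD12 were 0.33, 0.33 and -0.16, which mitochondrial mRNA scaling put at -0.36, -0.30 and -0.70, the first and the last passing as lower, and library size alone put the first at -0.00050. Upper-quartile scaling turned the value with 1 µM THZ531 to 0.04. The log2 FC of PSMD12 was 0.48 ± 0.10 (± SE, adjusted p = 0.00115) for lapatinib and THZ531 and 0.49 ± 0.10 (adjusted p = 0.00132) for nilotinib and THZ531, each against 1 µM THZ531. PSMD11 had 0.19 ± 0.07 (adjusted p = 0.0355) and 0.32 ± 0.07 (adjusted p = 0.00126). PSMD5 was lower with lapatinib and THZ531 than with 1 µM THZ531, at -0.30 ± 0.08 (adjusted p = 0.00638). These counts were small and moved with the settings: mitochondrial mRNA scaling left 1, which was lower, and 0 called, beside 5.96% higher and 16% lower and 5.36% higher and 9.68% lower among the genes tested. A fit of the groups compared alone left 1 and 1, beside 7.64% higher and 8.26% lower and 6.28% and 6.29%, and library size alone left 2 with lapatinib, beside 10.1% higher and 21% lower. Between the combinations 0 of the 34 passed by edgeR (at an unadjusted p under 0.05, 0 higher and 2 lower; by DESeq2, 0 and 1), beside 0.73% and 0.736%, with medians of -0.0023 and 0.01. The count was 1, a lower call, with a replicate block or with library size alone. It was also 1 without DMSO replicate 2, without replicate 1 of lapatinib and THZ531, or without replicate 2 of 1 µM THZ531.

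Levels of different genes were compared per length, as CPM per kb of transcript in DMSO (mean ± SD, n = 3). PSMD2 (220.4 ± 2.41) and PSMA7 (216 ± 15.0) were the highest of the 34 and lay within their spread of each other. PSMB10 (13.1 ± 0.360) and PSMD9 (13.3 ± 0.960) were the lowest, with PSMD12 (24.2 ± 0.453) next. By place in the complex, the median level per kb was 121 for the alpha ring, 143 for the constitutive beta ring, 75.5 for the ATPases, 63.9 for the other base subunits, 61.0 for the lid and 33.4 for the chaperones. PSMA4 (28.0 ± 1.72) and PSMA5 (31.0 ± 3.38) of the alpha ring lay below the median of each of these 6 classes. PSMA5 was within its spread of the median of the chaperones. The length used is that of 1 reference transcript a gene. It had 4378 bases for PSMA4, 3815 for PSMA5 and 4356 for PSMD12, beside 955 to 1434 for the other tested alpha genes. Before division by length, PSMA4 and PSMA5 had 123 and 118 CPM in DMSO, above PSMA3 at 88.9 CPM. Their low ranks thus depend on the transcript chosen, and which transcripts the cells express was not tested.

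Summed over the 34 tested genes, levels were 5212, 4925 and 5400.3 CPM in the 3 DMSO libraries. The sums were 8038, 6948 and 7196 CPM with lapatinib and THZ531, 7979, 7258 and 6855 CPM with nilotinib and THZ531, and 6554, 7112 and 7151 CPM with 1 µM THZ531. Under TMM scaling these lay above the sums of DMSO and of the single treatments, whose means ± SD (n = 3) were 5506 ± 168 for 0.1 µM THZ531, 5107 ± 347 for lapatinib and 5273 ± 103 for nilotinib. As a share of all counts, without TMM, the 34 genes took 0.568 ± 0.0272% in DMSO and 0.647 ± 0.0464%, 0.655 ± 0.0476% and 0.636 ± 0.0286% in the strong treatments, and there replicate 1 of 1 µM THZ531, at 0.603%, lay below replicate 1 of 0.1 µM THZ531, at 0.611%. With TMM the core particle's sum came to 1.54, 1.50 and 1.42 times its DMSO mean in the strong treatments, and the regulatory particle's to 1.40, 1.41 and 1.32 times. Against the mitochondrially encoded mRNAs the strong treatments did not stand apart. Subunit counts per mitochondrial mRNA count were 0.457 ± 0.0516 in DMSO (mean ± SD, n = 3) and 0.407 ± 0.0587, 0.423 ± 0.0614 and 0.422 ± 0.0739 in the strong treatments, beside 0.485 ± 0.0224 with 0.1 µM THZ531, 0.410 ± 0.0508 with lapatinib and 0.411 ± 0.0389 with nilotinib, with overlapping groups. The subunit genes also drew apart from each other. Over the 30 tested genes of the core and regulatory particles other than the inducible one, the SD of log2 CPM per kb within a library was 0.91 ± 0.01 in DMSO and 1.12 ± 0.03, 1.09 ± 0.05 and 1.14 ± 0.05 in the strong treatments, a quantity that no scaling of libraries changes. The ratio of the highest to the lowest of those genes was 9.23 ± 0.318 in DMSO and 15.4 ± 1.73, 14.5 ± 2.48 and 18.5 ± 4.30 in the strong treatments.

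**Figure D3:**
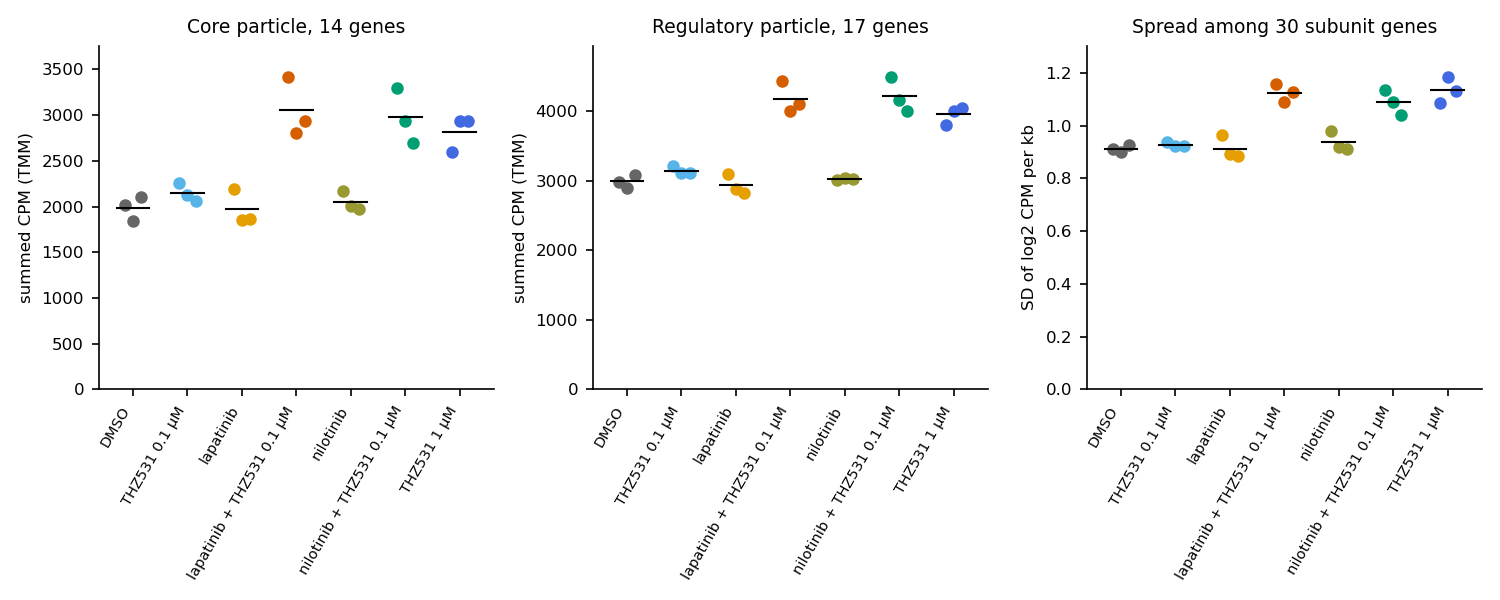
Summed CPM of the core and of the regulatory particle, and the SD of log2 CPM per kb over 30 subunit genes, in each library, with group means (n = 3). The 9 libraries of the strong treatments lie above the other 12 in each panel, while counts per mitochondrial mRNA count overlap between groups, with lower means in the strong treatments, in lapatinib and in nilotinib than in DMSO.

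Proteasome subunit genes are short. Their median span from start to end of the gene was 16581 bases, beside 27777 for the genes tested, from 2332 for PSMB6 to 138787 for PSMA1, and the median transcript had 1553.5 bases, beside 3094. Across the 34 genes, Spearman's rho of log2 FC with gene span was -0.27, -0.23 and -0.33 in the strong treatments, beside -0.19, -0.15 and -0.16 across 15857 genes. With transcript length it was -0.48, -0.41 and -0.31, beside -0.30, -0.27 and -0.29 across 15275. These are descriptions across genes, which are not independent replicates and share their libraries. The 17 shorter subunit genes had a median log2 FC of 0.57 with lapatinib and THZ531 and the 17 longer ones 0.37, with 14 and 13 higher under TMM scaling. With nilotinib and THZ531 the medians were 0.57 and 0.45, with 14 and 14 higher, and with 1 µM THZ531 0.53 and 0.41, with 14 and 11 higher. The part of length in the change of the subunit genes was not tested. Libraries were unstranded, so reads of overlapping genes on the other strand, such as ATG4A over PSMD10 and NRDE2 over PSMC1, cannot be told apart where they overlap, and 45 named pseudogenes resemble 19 of the members, 13 of them PSMC1.

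Genes that work with the proteasome but carry other symbols were followed in 8 lists, to be read beside the 34.3%, 33.7% and 33.1% of the genes tested that rose and the 37.8%, 37.3% and 36.8% that fell in the strong treatments. ADRM1 and SEM1 encode subunits of the regulatory particle. ADRM1, a ubiquitin receptor, had 126 ± 8.82 CPM in DMSO (mean ± SD, n = 3) and 241 ± 12.7, 231 ± 5.49 and 201 ± 7.35 CPM in the strong treatments. Its log2 FCs were 0.93, 0.87 and 0.67 (adjusted p = 3.21e-11, 1.00e-10 and 6.59e-09), and those of SEM1, a small lid subunit, were 0.91, 0.81 and 0.84 (adjusted p = 7.54e-10, 3.92e-09 and 2.92e-09), while under mitochondrial mRNA scaling they were 0.25, 0.25 and 0.13 and 0.23, 0.20 and 0.31 and did not pass. Assembly factors went both ways. Of the 6 tested, 1 rose and 3 fell with each combination, 1 rose and 5 fell with 1 µM THZ531, and the median log2 FCs were -0.50, -0.44 and -0.48. With 1 µM THZ531, PSMG1 and PSMG4 lost their calls without DMSO replicate 1 (-0.23 and -0.23) and without replicate 1 of that treatment (-0.20 and -0.16), among others. Mitochondrial mRNA scaling put PSMG1 at -0.68, -0.69 and -0.79 and PSMG4 at -0.70, -0.46 and -0.76. There both passed as lower in each strong treatment, as did PSMG2, PSMG3 and PAAF1. PSMG2, which with PSMG1 chaperones the alpha ring, had 63.3 ± 6.12 CPM in DMSO and 22.8 ± 3.11, 26.1 ± 1.61 and 25.3 ± 2.67 CPM in the strong treatments. Its log2 FCs were -1.48, -1.28 and -1.32 (adjusted p = 5.90e-11, 5.11e-10 and 4.10e-10). PSMG3, a chaperone of the same ring, had 53.0 ± 3.59 CPM in DMSO, 22.8 ± 1.71, 21.1 ± 1.72 and 16.9 ± 3.23 CPM in the strong treatments and log2 FCs of -1.21, -1.33 and -1.65 (adjusted p = 5.35e-09, 1.57e-09 and 9.64e-11). PAAF1, a chaperone of the base, fell by 0.97, 0.81 and 0.71 on the log2 scale, and was the 1 of these 6 that also fell with 0.1 µM THZ531 alone, at -0.45 (adjusted p = 0.00985). POMP, which is needed for maturation of the core particle, rose by 0.71, 0.60 and 0.46, or 0.02, -0.02 and -0.07 and not passing under mitochondrial mRNA scaling.

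A list of 7 genes held the alternative caps and inhibitor of the core particle together with ECPAS and AKIRIN2. In the strong treatments 4, 5 and 3 of them rose and 0, 0 and 1 fell, the last being AKIRIN2. The list's median log2 FCs were 0.19, 0.21 and 0.09. They turned to -0.14, -0.10 and -0.17 with library size alone and -0.50, -0.42 and -0.45 with mitochondrial mRNA scaling. PSME1 and PSME2, which encode the interferon-inducible PA28 cap, had 0.88, 0.70 and 0.68 (adjusted p = 2.04e-09, 5.58e-08 and 1.13e-07) and 0.86, 0.77 and 0.77 (adjusted p = 1.45e-07, 6.78e-07 and 8.61e-07), or 0.19, 0.09 and 0.14 and 0.18, 0.16 and 0.23 and not passing under mitochondrial mRNA scaling. PSME3, the nuclear PA28 gamma, had -0.06, 0.02 and 0.03 and did not pass, but under mitochondrial mRNA scaling it was -0.75, -0.60 and -0.51 and passed as lower. AKIRIN2, which carries proteasomes into the nucleus, had 0.16, 0.16 and -0.73 (adjusted p = 0.23, 0.233 and 1.54e-05), where the first and the middle value turned to -0.17 and -0.14 with library size alone and all became -0.53, -0.47 and -1.28 under mitochondrial mRNA scaling. Without replicate 2 of 1 µM THZ531 the values in the combinations passed as higher (0.16 and 0.16). PSMF1 lost its call as higher with both combinations without DMSO replicate 1 (0.17 and 0.16) or replicate 1 of that combination (0.13 and 0.13). With 1 µM THZ531 PSMF1 lost it without replicate 2 of that treatment (0.16). AKIRIN2, PSME2 and PSMF1 are named after their values were seen.

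Among 9 genes in the transcriptional control of the proteasome, 4, 4 and 3 rose and 3, 3 and 4 fell, with medians of 0.22, 0.07 and 0.05 that turned to -0.11, -0.23 and -0.20 with library size alone and -0.46, -0.55 and -0.50 with mitochondrial mRNA scaling. NFE2L1, the main activator of subunit genes when the proteasome is impaired, had log2 FCs of 0.22, 0.07 and 0.42 (adjusted p = 0.144, 0.658 and 0.00949), which turned to -0.11 and -0.23 in the combinations with library size alone and to -0.46, -0.55 and -0.13 under mitochondrial mRNA scaling, where both combinations passed as lower. Without replicate 1 of lapatinib and THZ531 the first was 0.34 and passed. Its activation is known to run through the protein, which these data do not measure. NFE2L2, its relative, fell, at -0.44, -0.49 and -0.92 (adjusted p = 0.00472, 0.00206 and 2.93e-06). KEAP1, the adaptor that targets the NFE2L2 protein for degradation, had 64.2 ± 1.94 CPM in DMSO (mean ± SD, n = 3) and 12.2 ± 0.965, 12.1 ± 0.308 and 15.0 ± 2.07 CPM in the strong treatments. Its log2 FCs were -2.39, -2.41 and -2.10 (adjusted p = 9.42e-15, 9.95e-15 and 1.26e-13), the lowest of the list. MAFF, a small MAF partner of these factors, was the highest, at 1.24, 1.28 and 1.18 (adjusted p = 4.37e-08, 3.00e-08 and 1.13e-07), and 0.57, 0.67 and 0.64 under mitochondrial mRNA scaling.

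On the substrate side, 4, 4 and 4 of 6 ubiquitin and E1 genes rose in the strong treatments and UBA6 fell in each, with medians of 0.60, 0.49 and 0.49 that turned to -0.09, -0.12 and -0.04 under mitochondrial mRNA scaling. RPS27A, which encodes ubiquitin fused to a ribosomal protein, had the highest log2 FCs, 0.91, 0.79 and 0.72 (adjusted p = 4.50e-07, 2.92e-06 and 9.96e-06), or 0.23, 0.17 and 0.19 and not passing under mitochondrial mRNA scaling. The lowest were those of UBA6, an E1 enzyme, at -0.54, -0.40 and -0.32 (adjusted p = 8.15e-07, 3.51e-05 and 4.30e-04). Of the shuttle factors and p97 partners, 6, 5 and 5 of 11 rose and 2, 3 and 2 fell. Single libraries moved these counts: UBQLN2 lost its call as lower without replicate 1 of lapatinib and THZ531 (-0.22), UBQLN1 its call as higher without DMSO replicate 2 (0.08) and ZFAND5 its call as lower without replicate 1 of nilotinib and THZ531 (-0.28), while ZFAND5 passed as lower with lapatinib and THZ531 without replicate 2 of 1 µM THZ531 (-0.21), genes chosen after their values were seen. Among those that rose was RAD23B, which carries ubiquitylated proteins to the proteasome, at 0.67, 0.65 and 0.49 (adjusted p = 5.93e-10, 9.71e-10 and 8.24e-08), or -0.02, 0.03 and -0.06 and not passing under mitochondrial mRNA scaling. NPLOC4, a p97 cofactor, had -0.49, -0.27 and -0.07 (adjusted p = 1.06e-06, 8.22e-04 and 0.341), the last of which upper-quartile scaling turned to 0.13. Mitochondrial mRNA scaling put NPLOC4 at -1.17, -0.89 and -0.61, each passing as lower. The medians of the shuttle factors and p97 partners were 0.12, 0.15 and 0.13. They turned to -0.21, -0.15 and -0.13 with library size alone and -0.56, -0.46 and -0.40 with mitochondrial mRNA scaling. Of the deubiquitinases and ligases that dock on the proteasome, 1, 2 and 3 of 4 rose and 0, 0 and 1 fell. With nilotinib and THZ531 the count hung on single libraries, as UCHL5 lost its call without DMSO replicate 2 (0.12) or replicate 1 or 3 of that treatment (0.13 and 0.16) and UBE3C gained one without replicate 3 (0.22), as seen from their values. USP14, which trims ubiquitin chains on the regulatory particle, had 0.23, 0.25 and 0.25 (adjusted p = 3.34e-04, 1.24e-04 and 1.69e-04), which turned to -0.10, -0.05 and -0.01 with library size alone and -0.45, -0.37 and -0.30 with mitochondrial mRNA scaling. The ubiquitin ligase UBE3A had -0.03, 0.01 and -0.24 (adjusted p = 0.781, 0.956 and 0.0423), where upper-quartile scaling turned the first to 0.12, library size alone turned the middle one to -0.29, and the last lost its call without replicate 2 of 1 µM THZ531 (-0.14) or DMSO replicate 1 (-0.19), among others. Mitochondrial mRNA scaling put UBE3A at -0.72, -0.63 and -0.80, each passing as lower. That list's medians were 0.11, 0.16 and 0.28, or -0.22, -0.14 and 0.03 with library size alone and -0.58, -0.46 and -0.26 with mitochondrial mRNA scaling. Interferon-responsive genes of antigen presentation, which share their inducer with PSMB8, PSMB9 and PSMB10, formed the last list, where IRF9, a transcription factor of the pathway, was the lowest, at -1.47, -1.60 and -1.82 (adjusted p = 2.89e-13, 9.93e-14 and 4.92e-14). TAP2, a peptide transporter, had the highest log2 FCs, 1.17, 0.65 and 3.01 (adjusted p = 0.214, 0.505 and 0.00245), but replicate 1 of 1 µM THZ531 held 487 of its 1183 counts, and without that library the last was 0.55 and did not pass, whereas the first, at 1.17, did (adjusted p = 0.0421).

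**Figure D4:**
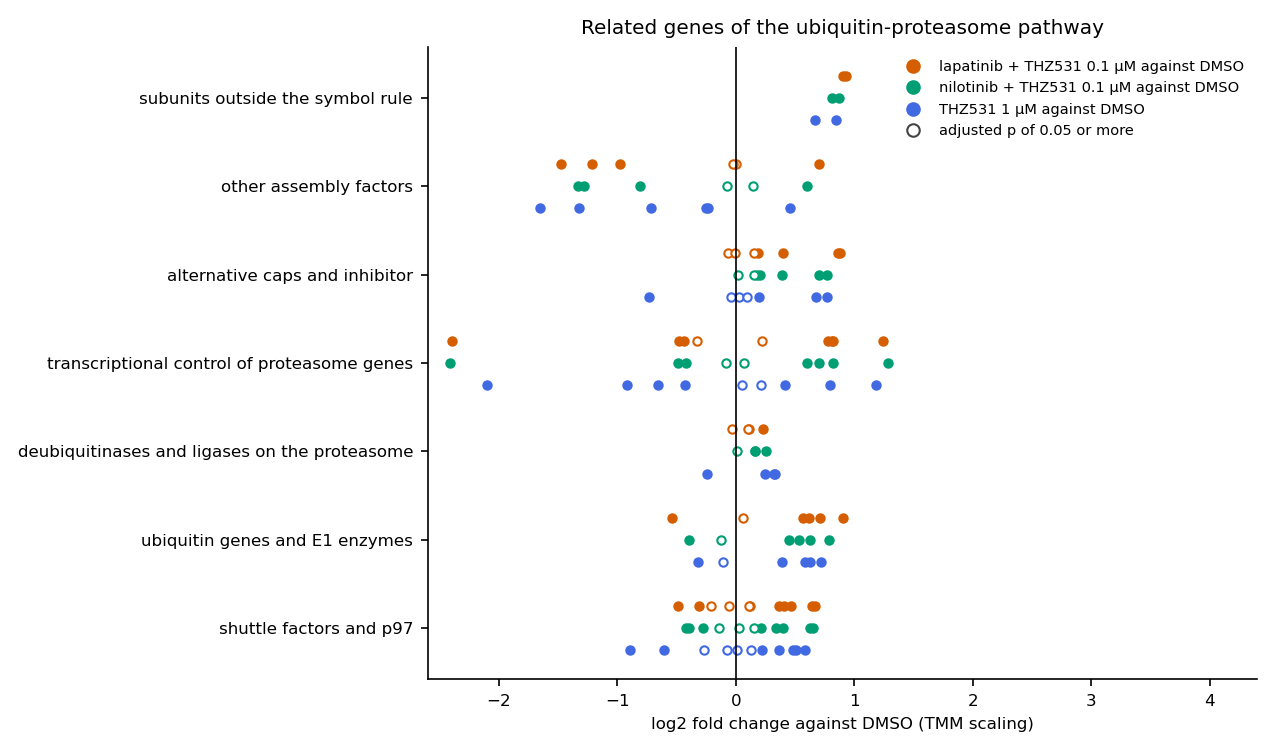
Log2 FC against DMSO (TMM scaling) of the tested genes of 7 of the 8 related lists, without the interferon-responsive one, 1 line of points a list and treatment. ADRM1 and SEM1 lie above 0 and the assembly factors PSMG2, PSMG3 and PAAF1 below, while the medians of the lists of caps (with ECPAS and AKIRIN2), control genes and shuttle factors turn below 0 under library size alone and under mitochondrial mRNA scaling.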

How the data were processed

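Libraries of polyadenylated RNA from 21 samples were sequenced unstranded as pairs of 100-base reads. The authors aligned them with HISAT2 2.1.0 to GRCh38 and deposited a table of raw read counts per gene from featureCounts. Its version and counting unit are not stated. Of counts from 1 to 20, 61.5 to 66.4% were even. Total counts per library were above the number of paired-end reads that the paper states, so 2 counts can come from 1 pair. NCBI symbols were taken from the Entrez identifiers (27745 matched). Genes were filtered with filterByExpr, scaled by TMM and tested with edgeR 4.0.16 (R 4.3.3) quasi-likelihood fits of 7 group means and 11 comparisons, adjusted by Benjamini-Hochberg over 16036 genes. Values by library are given for the catalytic and inducible beta subunits, for the highest and lowest log2 FC of each class with lapatinib and THZ531, and for genes past 1 in several strong treatments, and related lists are named by their highest and lowest gene, with further genes in the lists of assembly, outside subunits and control. Reference transcripts (GENCODE 44) were aligned to alternate contigs with minimap2 2.31-r1302. Alternatives were RLE size factors, library size, upper-quartile and mitochondrial mRNA scaling, no filter, a count minimum of 10, DESeq2 1.42.0, a replicate block, halved counts, fits of the groups compared, and leaving out each library. Calling was tested on simulated data in which 200 genes changed, in both directions. Far more genes were called in the strong treatments, so the simulation cannot test the choice of scaling. Some genes of the marker and interferon-responsive lists, and that list's summaries, are not reported here. The members, lists and rules were chosen with earlier results of these data known. A p-value here measures spread between these samples of 1 line.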

Additional observations from a re-analysis of the deposited data

Results flagged for a closer look

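The effect of 0.1 µM THZ531 differed with the tyrosine kinase inhibitor present, by a test of the difference itself, in 23 of the 34 tested proteasome subunit genes (67.6%) for lapatinib, beside 60.3% of the genes tested. For nilotinib it differed in 22 of the 34 (64.7%), beside 56.8%. These counts pool both directions. Under TMM scaling 61.8% and 58.8% of the subunit genes were higher, beside 28.2% and 25.6% of the genes tested. In each, 5.88% of the subunit genes were lower, beside 32% and 31.2%. With mitochondrial mRNA scaling the counts were 6 and 4, each of them lower, beside 3.7% higher and 44.4% lower for lapatinib and 3.7% higher and 40.1% lower for nilotinib. Under TMM scaling 21 and 20 had been higher, beside 28.2% and 25.6% of the genes tested.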

How the results depend on the processing

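Of 42 log2 FCs (14 genes in 3 strong treatments), direction and side of the threshold were kept in 42 with no filter, with a count minimum of 10, with a replicate block and with halved counts, in 40 with RLE size factors, 40 with DESeq2, 41 with the groups compared alone, 36 with upper-quartile scaling, 32 with library size alone and 8 with mitochondrial mRNA scaling. Leaving out 1 library gave 29 to 30, 29 to 30 and 28 to 30 subunit genes called in the strong treatments, 3 to 5 and 2 to 4 for the combinations against 1 µM THZ531, 0 to 1 between the combinations, and 22 to 27 and 19 to 26 for the interactions. PSMB5 ranged over -0.19 to 0.025, -0.14 to 0.066 and -0.021 to 0.11, and PSMA5 over -0.023 to 0.16 and -0.15 to 0.020 with lapatinib and THZ531 and with 1 µM THZ531, so that these signs turn with 1 library.

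With mitochondrial mRNA scaling the numbers called were 10, 8 and 9 in the strong treatments, 1 and 0 for the combinations against 1 µM THZ531, and 6 and 4 for the interactions, each of them lower, and the medians were -0.17 for lapatinib, -0.14 for nilotinib and -0.12, -0.080 and -0.10 for the strong treatments. Log2 FCs that turned there, in the order of the strong treatments, were -0.59 and -0.53 for PSMA5, -0.50 for PSMB5 with 1 µM THZ531, -0.014 for PSMD2 with lapatinib and THZ531, -0.18, -0.089 and -0.069 for PSMD4, -0.095 and -0.018 for PSMD8, and -0.25, -0.22 and -0.19 for PSMD10. With library size alone the number called was 2 for lapatinib and THZ531 against 1 µM THZ531, 1 between the combinations, and 14 and 13 for the interactions, the medians were 0.23, 0.23 and 0.18, and PSMA5 turned to -0.23 and -0.22 and PSMB5 to -0.22 with 1 µM THZ531, while PSMB5 passed as lower with both combinations (-0.39 and -0.33) and PSMA5 with 1 µM THZ531 (-0.33). Upper-quartile scaling gave medians of 0.71, 0.68 and 0.64 and turned PSMB5 to 0.099 and 0.11, PSMA5 to 0.14 with 1 µM THZ531 and PSMD6 to 0.027 with nilotinib and THZ531. RLE size factors and DESeq2 each gave 0.019 for PSMB5 with nilotinib and THZ531. A fit of the groups compared alone, which has fewer libraries to estimate spread, called 1 and 1 for the combinations against 1 µM THZ531. The replicate block and DESeq2 each called 1 between the combinations. Beyond what each scaling fixes by construction, the cause was not tested.

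Replicate numbers were not treated as pairing samples: 14 of 63 same-numbered pairs of libraries correlated over 0.1 in their residuals (from -0.28 to 0.32, median 0.04, beside -0.02 for other numbers). A fold change here is relative to the scaling chosen, in 1 cell line at 1 time with 3 libraries a group, and polyadenylated RNA says nothing of subunit protein or proteasome activity. The filter on low counts left 5 of the 39 members untested.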
